A study of Mus musculus with 6 samples.

Results

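The Fc receptors are 6 genes, chosen by name from the 54232 genes of the count table: Fcer1g, Fcgr1, Fcgr3, Fcgr4, Fcgr2b and Fcgrt. All 6 were among the 14335 genes tested. RNA came from whole tibialis anterior, a fast muscle along the shin, of C57BL6 animals at 1 month of age. Wild-type mice gave 3 libraries (WT 1, WT 2 and WT 3), and mice of the genotype labelled Delta 51, which lack exon 51 of the dystrophin gene Dmd, gave another 3 (dEx51 4, dEx51 5 and dEx51 6). The labels give no other allele or treatment and name the samples within a genotype as biological replicates. The libraries were strand-marked and made from mRNA, and the comparison asks how the exon deletion changes gene expression in the muscle.

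Fc receptors bind the constant part of antibodies. Fcgr1, Fcgr3 and Fcgr4 encode activating IgG receptors of leukocytes, which signal through a shared subunit, the Fc receptor gamma chain encoded by Fcer1g, whose tail carries an immunoreceptor tyrosine-based activation motif (ITAM). Fcgr2b encodes the inhibitory IgG receptor, which carries an inhibitory motif (ITIM) in its own tail and recruits the phosphatase SHIP1. Fcgrt encodes the heavy chain of the neonatal Fc receptor, a class I-like protein that pairs with beta-2 microglobulin and returns IgG and albumin from endosomes to the cell surface. Muscle with dystrophin loss is known to hold many macrophages, which carry all of the IgG receptors named here.

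Total counts ranged from 15681945 to 21020353 per library. Dmd was lower in every dEx51 library (46.4 to 51.1 counts scaled to a common library total, as CPM) than in WT (235 to 266 CPM), a check of the labels that was made over the whole gene and not exon 51. The muscle label was checked with 8 markers of fast fibres, which summed to 135000 to 138000 CPM in WT and to 91700, 87300 and 124000 CPM in dEx51 4, 5 and 6. By the summed markers of macrophages, dEx51 6 lay between WT and the other dEx51 libraries, and its values are given beside the results it touches.

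Fcgr2b, Fcgr4, Fcgr3 and Fcer1g lie on chromosome 1 in GRCm38, at 170958617 to 170976547, 171018920 to 171029761, 171051174 to 171064935 and 171229572 to 171234365. Fcgr1 lies on chromosome 3 at 96282909 to 96293969, and Fcgrt on chromosome 7 at 45092990 to 45103851. Fcgr4 is on the forward strand and the other 5 genes are on the reverse strand. The 120 bases before the start site are shown for the 3 activating receptor genes, which were picked for printing because each holds the same short run; Fcer1g and Fcgr2b rose too and lack it. All 6 genes were found in the RefSeq promoter table for GRCm38.p6. A pair of short runs was searched on both strands in the 250 bases before each start site. They were GAGGAA, the core bound by the myeloid factor PU.1 (written TTCCTC on the other strand), and TTCNNNGAA, the palindromic form bound by STAT factors. The windows are chr3:96293970-96294089 for Fcgr1, chr1:171059395-171059514 for Fcgr3 and chr1:171018806-171018925 for Fcgr4. For Fcgr3 the start site used is the more downstream of those in RefSeq, and its window lies inside the gene span given above. Capitals mark the matches, and each sequence reads 5′ to 3′ on the strand of the gene.
Fcgr1: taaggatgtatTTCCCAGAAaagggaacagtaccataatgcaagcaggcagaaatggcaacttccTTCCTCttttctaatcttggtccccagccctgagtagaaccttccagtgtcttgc
Fcgr3: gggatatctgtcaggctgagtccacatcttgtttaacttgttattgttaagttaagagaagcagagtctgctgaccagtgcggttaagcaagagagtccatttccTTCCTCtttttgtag
Fcgr4: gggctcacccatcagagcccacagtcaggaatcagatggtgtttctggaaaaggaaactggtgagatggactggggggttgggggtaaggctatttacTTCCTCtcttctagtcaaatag

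The PU.1 core stood once in each of these 3 promoters, on the strand opposite to the gene, at positions -55 to -50 in Fcgr1, -15 to -10 in Fcgr3 and -22 to -17 in Fcgr4, counted back from the start site. It was not found in the 250 bases before Fcer1g, Fcgr2b or Fcgrt. Of 32536 promoter windows of that length, 23.4% held it. The STAT form stood in Fcgr1 alone among the 6 genes, at -109 to -101, and 7.04% of all windows held it. The 2 forms do not overlap. A match is a run of letters and not a measured binding site.

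The 5 leukocyte receptor genes rose in dEx51 muscle and Fcgrt was not called. Calls rest on the quasi-likelihood test of edgeR at an adjusted p below 0.05, adjusted by Benjamini-Hochberg across the 14335 tested genes. By this rule 28% of the genes tested were called, 16.1% higher and 11.9% lower, and 5 of the 6 Fc receptor genes were called higher. Fcgr1 and Fcgr4 passed the expression filter for testing only through their dEx51 libraries, so a call of lower was hardly open to them. The share of mitochondrial counts was lower in every dEx51 library, at most 14.8%, than in any WT library, at least 19.4%. Scaling factors by TMM lay between 0.869 and 0.898 for WT libraries but between 1.04 and 1.19 for those of dEx51. The part of either in the receptor values was not tested. Libraries of the 2 genotypes did not overlap for any of the 6 genes, in each case with dEx51 higher, against 23.8% of genes tested (45.5% in either direction). In whole muscle, more cells that carry a transcript and more transcript per cell cannot be told apart. CPM were scaled with TMM factors (trimmed mean of M values), and each log2 fold change sets dEx51 against WT and carries its standard error (SE).

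Fcer1g, the shared signalling subunit, stood at 2.60, 1.64 and 3.08 CPM in WT 1, 2 and 3 and at 19.6, 24.0 and 11.0 CPM in dEx51 4, 5 and 6. The group means were 2.44 ± 0.731 and 18.2 ± 6.60 CPM (SD, n = 3 each), a log2 fold change of 2.92 (SE 0.334, edgeR adjusted p = 0.00125). The lowest dEx51 library, dEx51 6, was still well above the highest WT library, WT 3.

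Among the activating receptors, Fcgr3 was the most abundant. This low-affinity IgG receptor stood at 5.42, 3.34 and 5.94 CPM in WT, against 34.3, 52.6 and 26.8 CPM in dEx51. Its means were 4.90 ± 1.38 and 37.9 ± 13.2 CPM (2.96, SE 0.297, edgeR adjusted p = 7.96e-04). WT 2 was the lowest library and dEx51 5 the highest, and the groups did not overlap.

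Fcgr1, the high-affinity IgG receptor, had the largest edgeR fold change of the 6 genes. With limma-voom Fcgr4 was higher (3.58 against 3.51), and on the deposited RPKM with a pseudocount of 1 Fcgr1 (1.76) stood below Fcgr3 (2.83), Fcer1g (2.76) and Fcgr2b (2.19). It stood at 0.553, 0.493 and 0.788 CPM in WT, which rest on 10, 9 and 11 counts, and at 8.04, 12.0 and 3.32 CPM in dEx51. The means were 0.611 ± 0.156 and 7.78 ± 4.34 CPM, a log2 fold change of 3.69 (SE 0.517, edgeR adjusted p = 0.00251). The dEx51 libraries were widely spread for this gene, with dEx51 6 the lowest.

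Fcgr4, which binds IgG2 subclasses with intermediate affinity, was the least abundant by CPM in both groups. It had 7, 1 and 7 counts in WT (0.387, 0.0548 and 0.501 CPM) and 66, 100 and 41 counts in dEx51 (2.82, 4.37 and 2.13 CPM). The log2 fold change was 3.34 (SE 0.532, edgeR adjusted p = 0.00405). The single count of WT 2 limits the precision of the WT level, and without WT 2 the log2 fold change was lower, at 2.80, and the gene was again called.

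Fcgr2b, the inhibitory receptor, rose by a similar factor to its activating neighbour Fcgr3. It stood at 6.14, 3.01 and 7.73 CPM in WT, against 37.3, 55.8 and 25.5 CPM in dEx51, with means of 5.63 ± 2.40 and 39.6 ± 15.3 CPM (2.83, SE 0.374, edgeR adjusted p = 0.00204). Fcgr2b and Fcgr3 share long stretches of sequence: 9.58% of the 50-base runs of the Fcgr3 transcripts, and 2.92% of those of Fcgr2b, occur in the other gene. Reads from these stretches could have been split or dropped in counting, so the level of each gene relative to the other is uncertain to that extent. A further antisense gene, Gm38204, shares 155 exon bases with Fcgr2b and had 3 counts in all libraries together.

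Fcgrt, the transport receptor, stood at 37.2, 34.6 and 39.5 CPM in WT, against 40.3, 49.2 and 44.8 CPM in dEx51. The means were 37.1 ± 2.42 and 44.7 ± 4.44 CPM, a log2 fold change of 0.27 (SE 0.102) that was not called (edgeR adjusted p = 0.0823). The groups did not overlap, but the lowest dEx51 library, dEx51 4, lay next to the highest WT library, WT 3. The call rests on the scaling: scaled to library size alone, which moves the all-gene median by 0.35 on the log2 scale, the value for Fcgrt was 0.62 and it was called (edgeR adjusted p = 0.00572). The limma test on the deposited RPKM gave 0.61 (adjusted p = 0.00707) with a pseudocount of 0.1. In the authors' deposited table Fcgrt has a log2 fold change of 0.24 and an adjusted p of 0.0599.

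**Figure D1:**
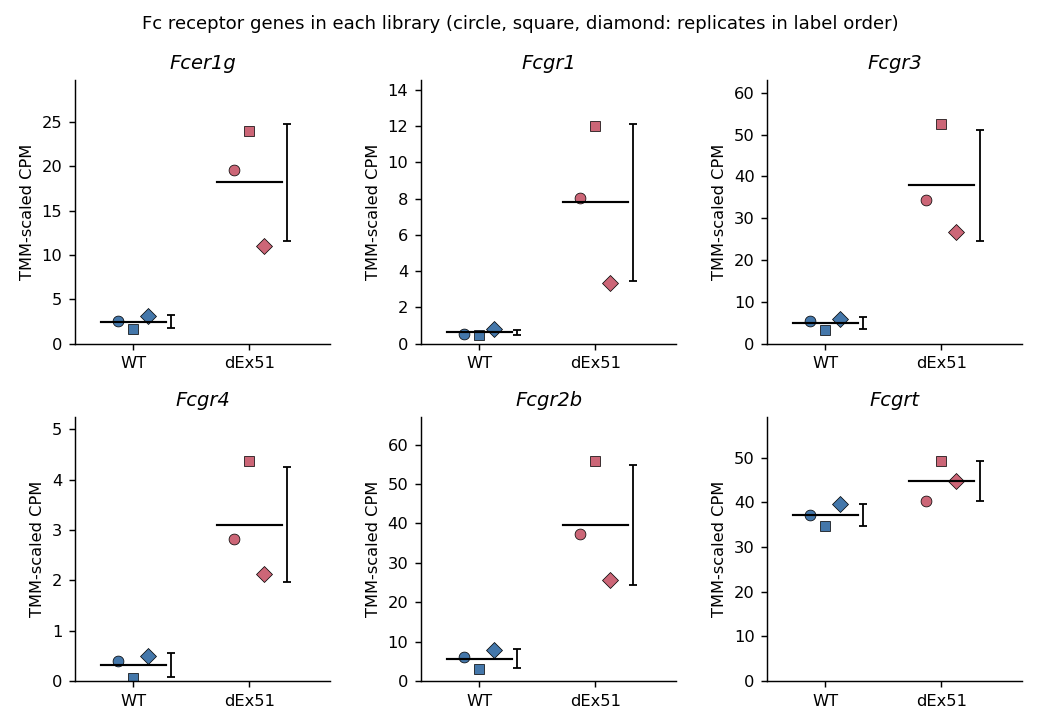
TMM-scaled CPM of each Fc receptor gene in the 3 WT (blue) and 3 dEx51 (red) libraries, each panel with its own axis from 0; horizontal lines are group means and bars ± SD. The 5 leukocyte genes are lowest in WT 2 and highest in dEx51 5, while Fcgrt runs from 34.6 to 49.2 CPM over all libraries.

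Leukocyte members moved together from library to library within each genotype. For Fcer1g, Fcgr1, Fcgr3, Fcgr4 and Fcgr2b the order in dEx51 was dEx51 5, then dEx51 4, then dEx51 6, and the order in WT was WT 3, WT 1, WT 2. Fcgr1 shows this order too, with WT 1 and WT 2 close together. Fcgrt had another order in dEx51, with dEx51 6 above dEx51 4. In dEx51 6 the rise above the WT mean was 44.2% of that in the other dEx51 libraries for Fcer1g, 28.8% for Fcgr1, 56.9% for Fcgr3, 55.2% for Fcgr4 and 48.6% for Fcgr2b. The 10 macrophage and monocyte markers summed to 90.2, 57.3 and 119 CPM in WT and to 673, 1140 and 485 CPM in dEx51, the same order of libraries in both groups. All 10 were called higher (median log2 fold change 3.06), of which Cd14 and Cx3cr1 passed the expression filter only through their dEx51 libraries. The summed rise of the 10 per kilobase in dEx51 6 was 46.7% of that in dEx51 4 and 5. The part of these markers in the rise of the receptors was not tested.

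Markers of other cell types that can carry Fc receptors were followed too, against 16.1% called higher and 11.9% lower among all genes tested. Of 8 neutrophil markers, the 1 tested, Csf3r, was called higher, and Ly6g, Mpo and Elane had 0 counts in every library. Csf3r, with 7, 2 and 5 counts in WT, passed the expression filter only through its dEx51 libraries. The neutrophil sum ran from 0.329 to 1.93 CPM in WT and from 2.96 to 8.97 CPM in dEx51, and Csf3r gave most of it in dEx51 (3.81, 8.09 and 2.28 CPM). The other 7 neutrophil markers summed to 0.221, 0.219 and 1.58 CPM in WT 1, 2 and 3 and to 1.67, 0.875 and 0.675 CPM in dEx51 4, 5 and 6, with overlap between the groups. All 6 mast cell markers were tested and 0 were called (0 at an unadjusted p under 0.05 in edgeR as well), with sums of 10.1 to 17.9 CPM in WT and 14.3 to 22.4 CPM in dEx51. None of the 6 B and plasma cell markers reached the level for testing (0.767 to 1.33 and 0.467 to 1.22 CPM). Of 6 T and NK cell markers only Cd3e did, also only through its dEx51 libraries, and it was called higher. Eosinophil markers summed to at most 0.215 CPM in WT and 0.831 CPM in dEx51, and Epx held 1 count in all libraries together. Of 6 dendritic cell markers 3 were called higher and 0 lower, with sums of 14.0 to 15.4 CPM in WT and 29.9 to 53.0 CPM in dEx51. Flt3 and Itgax among the 3 passed the expression filter only through their dEx51 libraries. Itgax, which macrophages also express, stood at 17.4, 11.2 and 38.5 CPM in dEx51, and without it the other 5 markers summed to 13.5 to 14.6 CPM in WT and to 18.4, 18.8 and 14.4 CPM in dEx51, where dEx51 6 fell within the WT range. Of 8 endothelial markers, which matter because endothelium is known to carry Fcgrt, 0 were called higher and 4 lower (510 to 605 and 360 to 448 CPM). Of 5 markers of fibro-adipogenic progenitors, 2 were called higher (519 to 692 and 718 to 942 CPM). Of 4 satellite cell markers 1 was called higher (30.7 to 44.0 and 55.4 to 59.9 CPM), near the share of all genes. The part of these cells in the receptor values was not tested.

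Levels of different genes were compared as TMM-scaled CPM per kilobase of exon (RPKM). In WT, Fcgrt stood first at 17.6 ± 1.15 RPKM, followed by Fcgr3 at 2.82 ± 0.793, Fcer1g at 2.79 ± 0.836, Fcgr2b at 0.972 ± 0.415, Fcgr4 at 0.250 ± 0.185 and Fcgr1 at 0.236 ± 0.0601 RPKM. The libraries of Fcgr3 and Fcer1g overlapped, as did those of Fcgr4 and Fcgr1. In dEx51 the transport receptor no longer stood apart: Fcgr3 was at 21.8 ± 7.63, Fcgrt at 21.3 ± 2.11 and Fcer1g at 20.8 ± 7.55 RPKM, and the libraries of these 3 genes overlapped. Below them came Fcgr2b at 6.83 ± 2.64, Fcgr1 at 3.01 ± 1.68 and Fcgr4 at 2.48 ± 0.915 RPKM. Fcgr2b and Fcgr1 overlapped between libraries although Fcgr2b was higher in 3 of 3, and Fcgr1 and Fcgr4 overlapped. The order depends on the exon length used, which for Fcgr2b sums 5790 bases over 7 transcripts while its longest coding transcript has 3544. With the lengths of the longest coding transcripts, the dEx51 order was Fcgr3 at 28.1, Fcer1g at 26.7 and then Fcgrt at 25.3 RPKM.

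Within the leukocyte set, the share of each of the 5 genes overlapped between genotypes. Fcgr3 made up 40.3 ± 2.08% of the summed counts per kilobase of the 5 leukocyte genes in WT and 40.1 ± 3.52% in dEx51. Fcer1g made up 39.7 ± 1.33% and 37.8 ± 3.28%, and Fcgr2b 13.4 ± 1.77% and 12.4 ± 0.422%. Fcgr1 made up 2.78, 4.18 and 3.39% in WT and 5.75, 6.13 and 3.62% in dEx51, so that dEx51 6 fell among the WT libraries. Fcgr4 made up 4.01, 0.957 and 4.44% in WT and 4.16, 4.61 and 4.78% in dEx51, where the low share of WT 2 rests on 1 count.

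**Figure D2:**
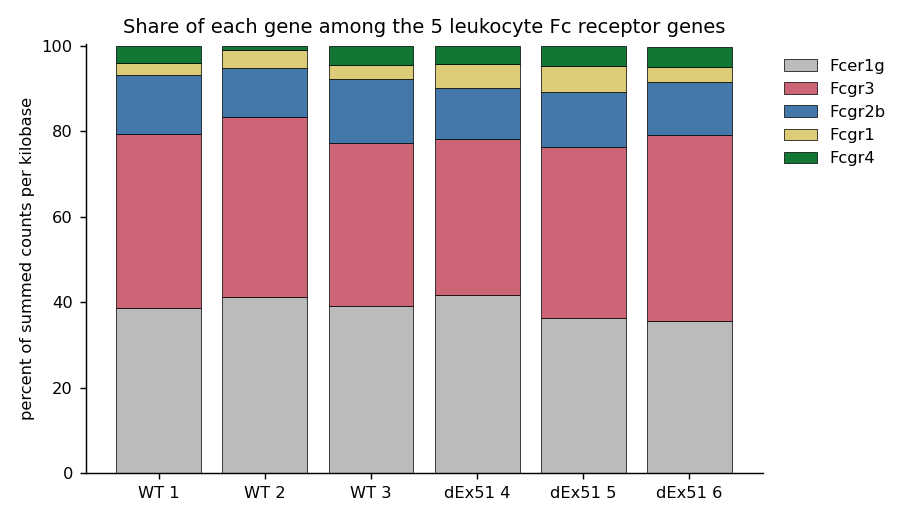
Share of each gene in the summed counts per kilobase of the 5 leukocyte Fc receptor genes, in percent, for each library. Fcer1g and Fcgr3 together fill most of every bar, and the Fcgr2b share lies between 11.4% and 14.9% in all 6 libraries.

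Ratios within a library do not depend on the scaling between libraries. They were compared by exact two-sided permutation tests, for which 0.1 is the smallest p with 3 against 3 libraries, so none could pass 0.05. The activating receptors, summed per kilobase, stood to the inhibitory receptor Fcgr2b at 3.44, 4.15 and 3.09 in WT and at 3.89, 3.98 and 4.18 in dEx51. The log2 difference was 0.19 (exact permutation p = 0.3), and WT 2 lay within the dEx51 range. Without WT 2 the difference was 0.30 and without WT 3 it was 0.09. The level of this ratio depends on the exon length used. Its means were 3.56 in WT and 4.02 in dEx51, but 2.72 and 3.03 with the lengths of the longest coding transcripts. Fcgr3 over Fcgr2b differed by 0.09 (exact permutation p = 0.6) and Fcgr1 over Fcgr2b by 0.67 (exact permutation p = 0.2). Fcgr4 over Fcgr2b did not overlap, at 0.291, 0.0838 and 0.299 in WT and 0.349, 0.361 and 0.384 in dEx51 (log2 difference 0.91, exact permutation p = 0.1). Without WT 2 this log2 difference was 0.31.

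The subunit Fcer1g stood to the summed activating receptors at 0.816, 0.871 and 0.854 in WT and at 0.894, 0.714 and 0.683 in dEx51. The groups overlapped, with dEx51 4 the highest of all libraries (log2 difference -0.16, exact permutation p = 0.4). The difference was -0.28 without dEx51 4 and -0.08 without dEx51 6. Tyrobp encodes DAP12, another ITAM adaptor of myeloid cells. Fcer1g over Tyrobp, a ratio added after the data were seen, was 0.815, 1.53 and 1.37 in WT and 0.817, 0.619 and 0.536 in dEx51 (-0.88, exact permutation p = 0.2). Fcgrt over its light chain B2m was 0.176, 0.162 and 0.104 in WT and 0.0864, 0.0976 and 0.122 in dEx51 (-0.51, exact permutation p = 0.2), with overlap at WT 3 and dEx51 6. Of 19 ratios computed, 0 passed, and the smallest p adjusted over them was 0.173.

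**Figure D3:**
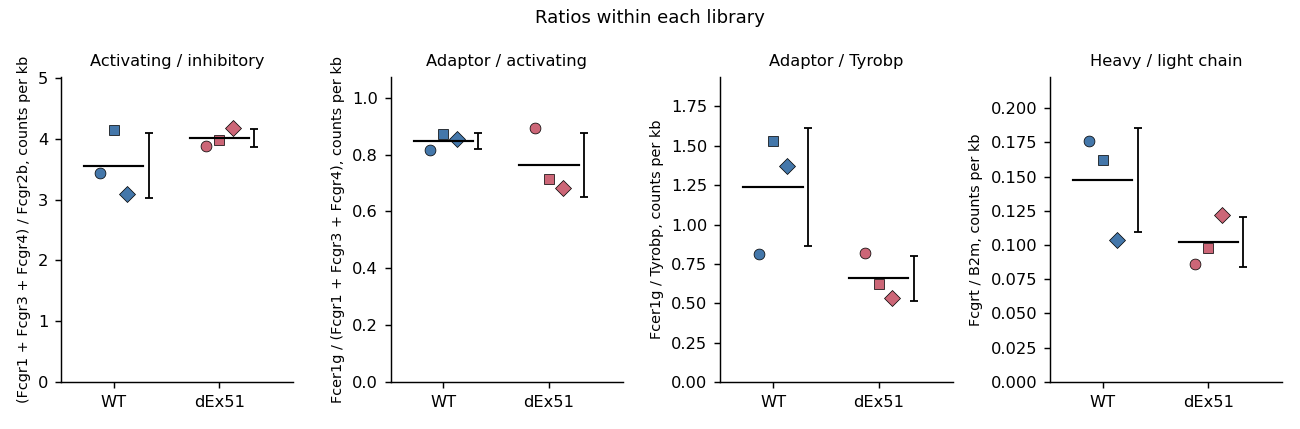
Ratios of counts per kilobase within each WT (blue) and dEx51 (red) library, with axes from 0; lines are group means and bars ± SD. By summed exon length, the activating to inhibitory ratio lies between 3.09 and 4.18 in all libraries, and the groups overlap in each of the 4 panels.

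Set against macrophage markers, the receptors gave a direction that depended on the marker. The 5 leukocyte genes together stood at 0.180, 0.181 and 0.167 of the summed macrophage markers in WT and at 0.140, 0.112 and 0.132 in dEx51, a log2 difference of -0.47 without overlap (exact permutation p = 0.1). Against the same sum, Fcer1g (-0.54), Fcgr3 (-0.48) and Fcgr2b (-0.57) went down without overlap. Fcgr1 (0.10) and Fcgr4 (0.34) went up, with overlap between the groups. Lyz2, the lysozyme gene of myeloid cells, made up 69.7% of that sum in WT and 78.6% in dEx51. Against Csf1r alone, the receptor of macrophage colony-stimulating factor, the 5 genes stood at 1.84, 1.92 and 1.93 in WT and at 3.77, 3.40 and 3.03 in dEx51. The log2 difference was 0.84, also without overlap (exact permutation p = 0.1). Csf1r itself had a log2 fold change of 2.11 and Lyz2 of 3.64, and the 5 receptor genes lay between 2.83 and 3.69.

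The 7 lists of genes that work with these receptors together held 89 genes, of which 55 were tested, 37 called higher and 4 lower, against 16.1% higher and 11.9% lower among all genes tested. Over all genes tested the median log2 fold change was -0.0127. Of 12 adaptors and receptors that pair with or resemble Fcer1g, 4 were tested, 3 rose and 1 fell (median 3.43). Clec4d and Clec4n passed the expression filter only through their dEx51 libraries, as did Lat2 and Rab11fip1 of the lists below. Such genes could hardly be called lower, so the counts and medians of the lists lean towards higher. Tyrobp rose from 1.66 ± 0.808 to 21.2 ± 7.37 CPM (3.68, SE 0.374, edgeR adjusted p = 8.36e-04). Clec4n, which encodes the Fcer1g-coupled lectin dectin-2, rose from 0.316 ± 0.0254 to 2.91 ± 1.17 CPM (3.18, SE 0.406). Clec4d, another lectin receptor, had 2 counts in WT, both in WT 3, and 286 in dEx51, a ratio of scaled counts of 110 with a 95% interval from 30.1 to 911 that covers counting error only, and was called higher. Cd247, the zeta chain of the T cell receptor, fell from 1.56 ± 0.396 to 0.663 ± 0.107 CPM (-1.24, SE 0.293, edgeR adjusted p = 0.0167), a call that ended without WT 1 (-1.07), WT 2 (-1.24), dEx51 4 (-1.22) or dEx51 5 (-1.13). The chains of the high-affinity IgE receptor that join Fcer1g, Fcer1a and Ms4a2, held at most 13 counts in any library and were not tested.

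Genes of the activating branch rose nearly throughout: of 19 tested from 20 listed, 18 were called higher and 0 lower (median 2.47). Syk, the kinase that docks on phosphorylated ITAMs, stood at 6.09, 3.78 and 7.02 CPM in WT, against 28.6, 32.5 and 21.4 CPM in dEx51 (2.30, SE 0.239, edgeR adjusted p = 9.12e-04). Lyn, a Src-family kinase that phosphorylates both ITAMs and ITIMs, rose from 10.1 to 22.0 ± 8.22 CPM (1.14, SE 0.271), and its call ended without WT 2 (1.03) or dEx51 5 (0.87). The adaptor gene Lat2 rose from 0.272 ± 0.139 to 3.65 ± 0.885 CPM (3.78, SE 0.375), and Pik3r5, a regulatory subunit of a phosphoinositide 3-kinase, from 1.10 ± 0.364 to 7.91 ± 0.744 CPM (2.86, SE 0.243). The member not called was Pik3cd, a catalytic subunit named after its values were seen, at 17.9 ± 3.18 and 18.8 ± 3.10 CPM (0.07, or -0.03 without WT 3).

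Genes of the inhibitory branch rose as well. Of 12 tested, 10 were called higher and 1 lower (median 2.34). Inpp5d, which encodes SHIP1, stood at 5.64, 4.44 and 6.30 CPM in WT, against 22.2, 28.9 and 16.3 CPM in dEx51 (2.05, SE 0.230, edgeR adjusted p = 0.00115). The ITIM receptor genes Cd300a and Pirb rose from 1.57 ± 0.343 to 13.1 ± 4.79 CPM (3.05) and from 1.69 ± 0.908 to 15.5 ± 1.82 CPM (3.22). Sirpa, which encodes the receptor of CD47, rose from 9.63 ± 3.16 to 66.3 ± 20.1 CPM (2.78, SE 0.282). Ptpn11, which encodes the widely expressed phosphatase SHP2, was the member called lower, from 213 ± 11.6 to 161 ± 6.67 CPM (-0.41, SE 0.0882). That call ended without WT 2 (-0.38), under library size alone (-0.06) and on the deposited RPKM at either pseudocount (-0.06). Inppl1, which encodes SHIP2 and is named after its values were seen, was not called (-0.28, or 0.07 under library size alone).

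Other immunoglobulin receptors were mostly too low to test. Of 10 listed, 2 were tested and 1 rose: Fcrls, an Fc receptor-like gene of macrophages and microglia, went from 2.61 ± 0.784 to 11.6 ± 3.73 CPM (2.16, SE 0.308, edgeR adjusted p = 0.00268). The cytosolic antibody receptor gene Trim21, named after its values were seen, was not called (0.28, or 0.63 and called under library size alone), and Pigr had 0 counts in every library.

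Among the ligands, 16 immunoglobulin constant region and pentraxin genes, 4 had 0 counts in every library. Only 2 were tested, and 0 were called (0 at an unadjusted p under 0.05 in edgeR). Ighm, the constant region of IgM, stood at 46.8, 30.9 and 37.1 CPM in WT, against 28.5, 23.9 and 34.8 CPM in dEx51, with overlap between the groups (-0.40, SE 0.181, edgeR adjusted p = 0.137). Ighm was called lower with no filter (-0.38, edgeR adjusted p = 0.0493), and under library size alone the value was -0.06, while it was -0.23 without WT 1 and -0.26 without dEx51 5. Ptx3, which encodes a pentraxin that binds Fc receptors, was not called (0.09, SE 0.336). Ighg2b and Ighg2c, named after their values were seen, held at most 7 counts in any library. Serum IgG that reaches the muscle leaves no transcript there, so these counts say nothing of the protein.

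Of the light chain of Fcgrt and other class I genes, 6 were tested, 3 rose and 1 fell (median 0.62). B2m stood at 86.3, 87.7 and 156 CPM in WT, against 191, 206 and 150 CPM in dEx51 and was not called (0.73, SE 0.237, edgeR adjusted p = 0.0522). WT 3 was above dEx51 6, and the gene was called in 10 of 16 alternatives, among them DESeq2 (0.73, adjusted p = 0.0146), limma-voom (0.77, adjusted p = 0.0474), the fit with the replicate block (0.78, edgeR adjusted p = 0.0427) and the fits without WT 3 (1.06) or dEx51 6 (0.85). Over the 16 its adjusted p ran from 1.70e-04 to 0.171. The iron regulator gene Hfe rose 1.43-fold (0.52, SE 0.0861, edgeR adjusted p = 0.00488). H2-D1, a classical class I heavy chain, rose from 77.7 ± 20.4 to 135 ± 15.4 CPM (0.80, SE 0.179), and Cd1d1, a lipid-presenting class I-like chain, rose as well (1.24, SE 0.273). The calls of H2-D1 (0.69 and 0.73) and Cd1d1 (1.27 and 1.12) ended without WT 2 or dEx51 5. Mr1, which presents vitamin metabolites, fell from 35.0 ± 4.55 to 26.5 ± 1.77 CPM (-0.40, SE 0.116). That call ended without WT 1 (-0.34), WT 2 (-0.37), dEx51 4 (-0.35) or dEx51 5 (-0.42). It also ended under library size alone (-0.05) and on the deposited RPKM at either pseudocount (-0.04).

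Of 12 genes of cargo and recycling endosomes through which Fcgrt travels, 10 were tested, 2 rose and 1 fell (median -0.05), against 16.1% higher and 11.9% lower among all genes tested, so the counts lie near the background. Rab11fip1, a Rab11 effector gene, rose from 0.353 ± 0.0808 to 1.56 ± 0.208 CPM (2.11, SE 0.296, edgeR adjusted p = 0.00250), and the sorting nexin gene Snx4, named after its values were seen, rose by 0.38 (SE 0.107), a call that ended without WT 1 (0.36), WT 2 (0.35), WT 3 (0.41), dEx51 4 (0.32) or dEx51 5 (0.36). Exoc6, an exocyst subunit gene, fell from 85.9 ± 7.06 to 65.8 ± 7.97 CPM (-0.38, SE 0.112). That call ended without WT 1 (-0.33), WT 2 (-0.39), dEx51 4 (-0.34) or dEx51 5 (-0.32). It also ended under library size alone and on the deposited RPKM at either pseudocount (-0.04 in each). The albumin gene Alb held at most 4 counts in any library.

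**Figure D4:**
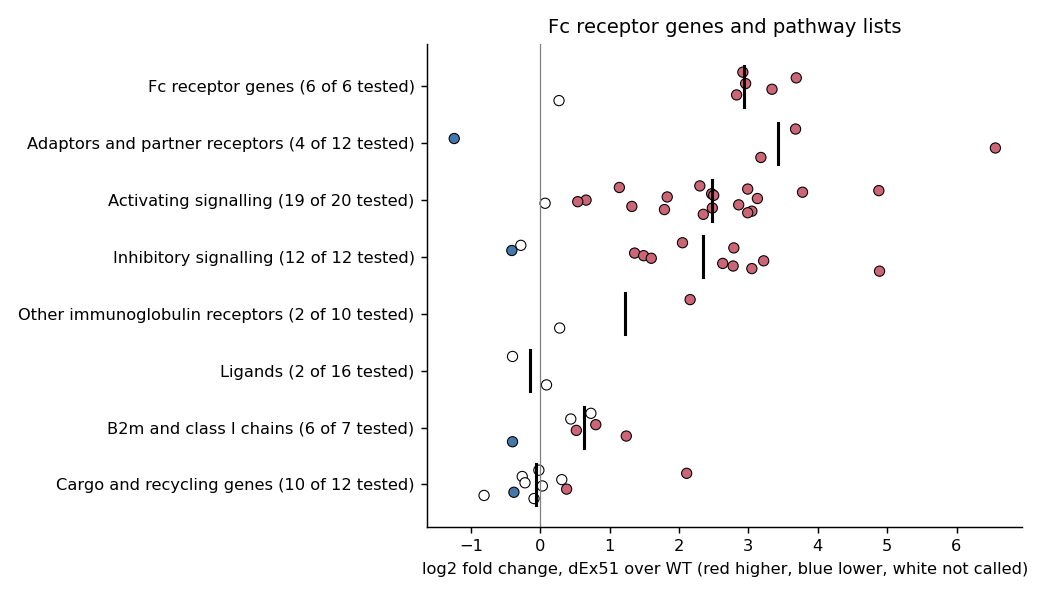
Log2 fold change, dEx51 over WT, of each tested gene among the Fc receptors and the 7 pathway lists; red genes were called higher, blue lower and white not called, and vertical bars are medians of the tested genes. The activating and inhibitory branches have medians of 2.47 and 2.34, and the cargo and recycling genes of -0.05.

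The neighbours of the members were compared with them by position. Within 100 kb of any of the 6 members, 37 other genes were tested, of which 1 was called higher and 5 lower (median log2 fold change -0.16). The 5 make up 13.5% of these neighbours, close to the 11.9% of all genes tested. For calls of higher, the 1 of 37 stands against 16.1% of all genes tested. All 5 lower genes are among the 12 tested within 100 kb of Fcer1g, against 11.9% lower among all genes tested. Among them, Pcp4l1 fell from 15.6 ± 4.08 to 6.47 ± 1.26 CPM (-1.27, SE 0.214, edgeR adjusted p = 0.00513). The succinate dehydrogenase subunit gene Sdhc fell from 269 ± 22.3 to 201 ± 12.2 CPM (-0.42, SE 0.101), and Tomm40l from 7.14 ± 0.415 to 5.12 ± 0.204 CPM (-0.48, SE 0.132). The calls of Sdhc (-0.07) and Tomm40l (-0.13) ended under library size alone. That of Sdhc also ended without WT 2 (-0.37) or dEx51 5 (-0.41) and on the deposited RPKM at either pseudocount (-0.07). That of Tomm40l also ended without WT 1 (-0.49), WT 2 (-0.44), dEx51 4 (-0.48) or dEx51 5 (-0.50), and in 9 settings in all. The neighbour called higher was the ribosomal protein gene Rpl13a near Fcgrt (1.13). Ribosomal protein genes have many processed copies, and shared sequence was not measured for this gene. Cfap126 beside Fcgr3 (0.86, SE 0.300) and the protease gene Adamts4 beside Fcer1g (2.62, SE 0.872), both named after their values were seen, were not called. Both passed the expression filter only through their dEx51 libraries. In WT 1, 2 and 3, Cfap126 had 9, 14 and 8 counts and Adamts4 had 28, 2 and 0. Adamts4 was called in 9 of 15 alternatives, among them the fit with the replicate block (2.91, edgeR adjusted p = 0.00915), limma-voom (3.99) and the fits without WT 1 (5.73) or dEx51 6 (2.95), and its adjusted p ran from 3.50e-05 to 0.23. The Adamts4 value without WT 1 rests on 2 and 0 counts in WT 2 and WT 3. Both genes were called under library size alone (Cfap126 at 1.22 and Adamts4 at 2.99). The Fc receptor-like genes Fcrla and Fcrlb beside Fcgr2b held at most 7 counts in any library and were not tested.

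**Figure D5:**
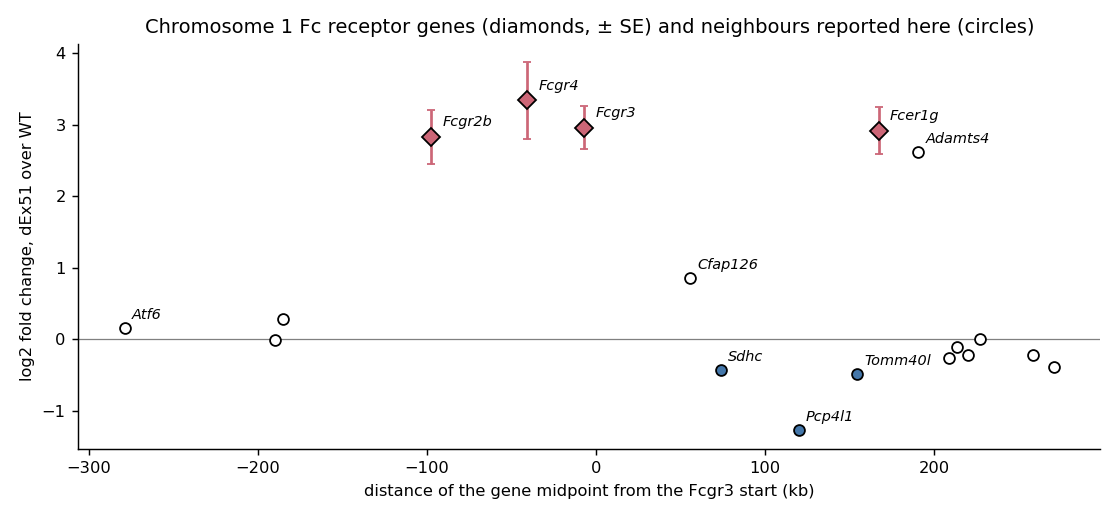
Log2 fold change, dEx51 over WT, against the distance in kb of each gene's midpoint from 171064935, the outer end of the Fcgr3 gene span. Red diamonds (± SE) are the 4 Fc receptor genes on chromosome 1. Circles are the tested genes within 100 kb of them that are reported here (blue lower, white not called). The receptor genes lie between 2.83 and 3.34, and no circle among their neighbours was called higher.

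The genes with the most similar profile were sought among 9701 genes of at least 5 CPM on average, as the root mean square difference of log2 levels over the 6 libraries after centring each gene. Before the log, 0.1 CPM was added, which is more than the 0.0548 CPM of Fcgr4 in WT 2. Fcgr1 and Fcgr4 lay below the 5 CPM limit, so they could not be found as matches. For Fcgr2b these were Arhgap30 (0.0913), Hpgds (0.10) and Slc38a1 (0.129). Slc38a1, a glutamine transporter gene, was also nearest to Fcer1g (0.121) and Fcgr3 (0.133), and Fcer1g and Fcgr3 were each second to the other (0.151). Fcgr4 was nearest to Nckap1l (0.0974), Ptprc (0.238) and Adgre1 (0.254), and Fcgr1 to Itgam (0.255), Rrm2 (0.311) and Lyz2 (0.318). Fcgrt was nearest to Lsm1 (0.043), Slc31a2 (0.0453) and Tcf12 (0.0472), 3 genes that were not called. The 6 libraries share the genotype split, and the measure carries no test.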

How the data were processed

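The deposited files hold raw counts for each gene with its exon length and, separately, RPKM values that the authors computed. Per the file headers, the authors' comparison table holds log2 fold changes and log2 CPM, a likelihood-ratio score, p-values and the −log10 of the p-value. Tools listed in the submitters' processing notes are edgeR 3.30.1, FastQC 0.11.4 and featureCounts 1.6.0, with the build GRCm38 (mm10). Not given in the sources used here are the aligner, the strand setting and the annotation release. Whether the mice shared litters or days is not given either, so p-values measure the spread between these libraries.

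Counts were tested here by quasi-likelihood in edgeR 4.0.16 (R 4.3.3) after TMM scaling and filterByExpr, with p-values adjusted by Benjamini-Hochberg across 14335 genes. The SE is the absolute log2 fold change divided by the square root of F. The procedure was tested on simulated data. Coordinates and transcripts came from GENCODE M21 on GRCm38 and promoters from RefSeq. Named genes are the members, Dmd, the partners B2m, Tyrobp, Syk, Inpp5d and Lyn, up to 4 genes of each list by adjusted p (3 that moved the way the median of the list did and 1 that moved the opposite way, or 2 with values only where none was called), called neighbours and the 3 nearest profiles. Others are said to be named later. The members and lists were chosen with earlier results of these data known.

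Other settings tried were scaling to library size alone, DESeq2 size factors, no filter, a filter of 5 CPM in 3 libraries, DESeq2 1.42.0, limma-voom (limma 3.58.1), limma on the log2 scale for the deposited RPKM (pseudocount 0.1 or 1), a replicate block and each library left out. The likelihood-ratio test and the longest coding transcript lengths, and the marker sums without Itgax or Csf3r, were added after seeing the data. Counting error alone is covered by the interval of Clec4d. Some neighbouring genes that were called are not reported here.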

Additional observations from a re-analysis of the deposited data

How the results depend on the processing

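Fcer1g, Fcgr3 and Fcgr2b were called higher in all 16 alternatives run and Fcgr1 and Fcgr4 in all 15 in which they were tested, with the highest adjusted p among these genes at 0.017 (Fcgr1). The stricter filter left 3 members called higher, because Fcgr1 and Fcgr4 were not tested under it, and 23 genes of the pathway lists. Counts of members called higher with 1 library left out were 5 throughout. Fcgrt kept its direction in all 16 and was called in 3 of them.

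Genes of the pathway lists called lower numbered 4, against 1 under library size alone, 0 with the deposited RPKM at either pseudocount, and 0 to 5 with 1 library left out. Neighbours called higher numbered 1, against 9 under library size alone and with the deposited RPKM at either pseudocount, 4 with no filter, the likelihood-ratio test or the replicate block, and 2 with DESeq2 or limma-voom, and from 1 to 4 with 1 library left out. Neighbours called lower numbered 5, against 2 under library size alone and with the deposited RPKM, and 2 to 6 with 1 library left out. Over all genes, library size alone gave 5394 higher and 334 lower genes against 2309 and 1701, the deposited RPKM 5222 and 308 or 5070 and 308, and leaving out WT 2 1346 and 663.

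The labels give both genotypes the replicate numbers 1 to 3. Deviations of same-numbered libraries correlated at 0.352 (WT 1 with dEx51 4), -0.01 and 0.0562, against -0.216 to 0.152 for differently numbered ones. The main fit did not take the numbers to pair the libraries, and whether WT 1 and dEx51 4 belong together was not tested. The fit with the replicate block called 2508 genes higher and 1960 lower, with B2m (0.78, edgeR adjusted p = 0.0427) and Adamts4 (2.91, edgeR adjusted p = 0.00915) among those higher.

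The receptors per macrophage marker turned direction with Csf1r alone, to 0.84 for the 5 genes, 0.76 for Fcer1g, 0.83 for Fcgr3 and 0.74 for Fcgr2b. Fcgr1 per marker (0.10) turned to -0.02 with 1 count added, and to -0.03 without WT 1 and -0.07 without dEx51 4 in a range up to 0.31, and Fcgr4 per marker (0.34) to -0.09 with 1 count added and -0.35 without WT 2 in a range up to 0.70. Fcgr3 over Fcgr2b turned to -0.03 without WT 3 in a range up to 0.23. Ptx3 turned to -0.04 with limma-voom and to -0.02, -0.22 and -0.01 without WT 3, dEx51 4 or dEx51 6, in a range up to 0.43. Pik3cd turned to -0.03 and -0.04 without WT 3 or dEx51 5 in a range up to 0.21, and Inppl1 to 0.07 under library size alone and with the deposited RPKM at either pseudocount. The cause of these changes was not tested.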
